A study of Arabidopsis thaliana with 6 samples.

Results

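The transposable elements (TEs) annotated on chromosome 5 of Arabidopsis thaliana were examined in leaf messenger RNA. All entries of the deposited count table whose name begins with AT5TE were taken, which gave 6677 of the 31189 TEs and of the 62524 genes and TEs listed. The libraries came from leaves of Col-0 plants aged 28 days, with 3 libraries of wild type and 3 of ddcc, a line mutated in DRM1, DRM2, CMT2 and CMT3 that carries no other named change. Wild type carried none of these mutations and served as the control. The labels name no treatment, batch, plant number or pooling, so the p-values measure the spread between these libraries, which may be technical.

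Transposable elements are mobile DNA segments and their remnants, and in Arabidopsis they are packed most densely around the centromeres. Plants keep them silent with DNA methylation in 3 sequence contexts, CG, CHG and CHH, where H stands for any base but G. CMT3 mainly maintains CHG methylation, CMT2 places non-CG methylation in heterochromatin, and the DRM enzymes act with small RNAs in the RNA-directed pathway. CG methylation depends on MET1, which is not mutated in ddcc. The comparison asks which elements are transcribed once non-CG methylation is lost.

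The wild-type libraries held 15188586 to 17644256 counts in total and the ddcc libraries 17265251 to 18809306. Of the mutated genes, DRM2 fell from 282 to 307 counts per wild-type library to 141 to 164 in ddcc. CMT3 fell from 150 to 164 counts to 49 to 62, and CMT2 from 235 to 261 counts to 186 to 221. DRM1 had 0 counts in wild type and at most 1 in ddcc, so it gave no check of the labels. Among 18 genes of non-CG methylation and TE silencing, 2 were higher, 5 lower and 10 not called, and DRM1 was untested. Over all 18498 tested features 15.5% were higher and 12.7% lower, and 3 of the 5 lower genes are the mutated DRM2, CMT2 and CMT3. The largest change in that list was the fall of ROS1, a DNA demethylase (log2 fold change −5.33, SE 0.23, Benjamini-Hochberg adjusted p 1.02e-07 by the quasi-likelihood test of edgeR). The leaf markers RBCS1A, LHCB1.1, CA1 and RCA stood at 2596 to 15820 CPM (counts scaled to a common library size) as genotype means. Of these, RBCS1A, LHCB1.1 and RCA were called lower in ddcc, with log2 fold changes of −0.19, −0.38 and −0.19, and CA1 was not called. The part of this shift in the TE results was not tested. The flower and seed markers AP3, AG and CRA1 had at most 6 counts in any library, and the root marker PYK10 had 9 to 71 counts.

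Most chromosome 5 elements gave no reads in either genotype. In all, 6054 (90.7%) had 0 counts in each of the 6 libraries, and 623 (9.33%) had at least 1 count somewhere, against 9.6% of the TEs of all chromosomes. Many of the 623 rested on very little, since 239 had a single count over all libraries and 444 had 1 to 9 counts. At the other end 62 elements reached 100 counts and 13 reached 1000. A count of 0 does not show absence of transcript, because 3 counts equalled 0.156 to 0.197 CPM in these libraries. Counts were not divided by element length, which was not used here, so levels are compared between genotypes for 1 element and not between elements.

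More elements were detected in ddcc than in wild type. The wild-type libraries had at least 1 count for 222, 191 and 168 elements in replicates 1, 2 and 3, and the ddcc libraries for 321, 373 and 336. Every ddcc library lay above every wild-type library, and the means were 194 ± 27.1 and 343 ± 26.8 (SD, n = 3 each), a ratio of 1.77. The p was 0.1 by exact permutation (both sides), and 3 libraries against 3 allow no smaller value. After thinning of every library to 15188586 counts the means were 187 and 321.

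The chromosome 5 elements together also took a larger part of the ddcc libraries. Their share of all counts was 0.0408%, 0.043% and 0.0461% in wild type and 0.0856%, 0.0722% and 0.0794% in ddcc. The genotypes did not overlap, and the ratio of the means, 0.079% ± 0.00673 to 0.0433% ± 0.00264 (SD, n = 3 each), was 1.83 with exact permutation p 0.1. Counting error was small beside this gap. The highest wild-type share had a 95% Wilson interval that ended at 0.0472%, and that of the lowest ddcc share began at 0.0709%. In bulk leaf RNA, more transcribing cells and more RNA per cell cannot be told apart.

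Among the 5 chromosomes, the TEs of chromosome 5 showed neither the largest nor the smallest increase. The summed TE level of ddcc was 3.62 times that of wild type on chromosome 1, 2.62 times on chromosome 2, 2.28 times on chromosome 3, 1.83 times on chromosome 5 and 1.25 times on chromosome 4, as ratios of genotype means. The part of all TE counts that fell on chromosome 5 was 21.2%, 20.7% and 26.9% in wild type and 20.0%, 17.6% and 18.6% in ddcc. These values did not overlap, and the mean difference, ddcc minus wild type, was −4.25 percentage points (exact permutation p 0.1). Without wild-type replicate 3 it was −2.25 points. It was −0.663 points (exact permutation p 0.7) without the 5 chromosome 5 elements with the most counts.

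Gains of signal far outnumbered losses. By presence of reads alone, 73 elements were gained, with 0 counts in every wild-type library and at least 1 in every ddcc library, and 1 element showed the reverse. With 5 counts required for presence and at most 1 allowed for absence, 36 elements were gained and 1 was lost. The gained elements were 1.09% of those listed on chromosome 5, against 1.31% of the TEs of chromosomes 1 to 4 and 0.402% of genes. Lost elements made up 0.015% on chromosome 5, 0.106% on the other chromosomes and 0.0894% of genes. A further 96 elements (1.44%, against 1.03% on the other chromosomes) had at least 1 count in all 6 libraries. Of the 296 elements with reads in ddcc alone, 172 were seen in 1 library, 51 in 2 and 73 in 3. Of the 103 with reads in wild type alone, 94 were seen in 1 library, 8 in 2 and 1 in 3. Most gains were faint. The median gained element had 13 counts over the 3 ddcc libraries, 51 of the 73 had fewer than 30, and the highest had 484.

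The single lost element, AT5TE15250, had 1, 1 and 3 counts in wild type and 0 in each ddcc library, too few for a test. Its number stands 10 above that of AT5TE15240, an element that fell and is described with the decreases. Leaving out 1 library can only keep or raise a number that is defined over every library. Lost elements then numbered 2 to 5 and gained elements 81 to 91. The loss of AT5TE15250 thus rests on few reads. With 5 counts required for presence and at most 1 for absence, 1 element was lost. This was AT5TE46175, with 82, 44 and 64 counts in wild type against 0, 0 and 1 in ddcc.

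For the test of single elements, genes and TEs of all chromosomes were fitted together with edgeR's quasi-likelihood model, and elements were called where the adjusted p was below 0.05. Of the 6677 elements, 83 (1.24%) had enough reads to be tested, of which 38 were called higher and 8 lower in ddcc, and 37 were not called. Of all tested features 15.5% were called higher and 12.7% lower, and of the 289 tested TEs of chromosomes 1 to 4 61.2% and 5.54%. The shares of the 83 chromosome 5 elements were 45.8% and 9.64%. Neither of these can be read as a rate for all elements. AT5TE46175, with 0, 0 and 1 counts in ddcc, entered the test only through its wild-type reads and was called lower. All 26 tested elements with at most 3 counts in every wild-type library were called higher, and they entered the test only through their ddcc reads.

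Among elements with reads in wild type, the balance of calls depended on the limit. Of the 56 tested elements with at least 1 count in all 6 libraries, 12 were higher and 7 lower. Of all calls on elements above 3 counts in a wild-type library 12 were higher and 8 lower. Both counts include elements that needed ddcc reads to enter the test, such as AT5TE63020 with 1, 1 and 4 wild-type counts. Neither can therefore be read as a balance of changes. Of the 44 tested elements with at least 10 counts in every wild-type library, 5 were higher (11.4%) and 8 lower (18.2%), with a median log2 fold change of 0.06. Under the same limit 14.6% of all tested features were higher and 13.2% lower, with a median of −0.01, and of 121 TEs on chromosomes 1 to 4 the shares were 19.8% and 13.2%. The limit was set on wild-type counts alone, and no difference between these shares was tested.

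The added transcript level came mostly from elements that were silent or nearly silent in wild type. Summed over all chromosome 5 elements, the level was 420, 435 and 460 CPM in wild type and 839, 712 and 794 CPM in ddcc, with means of 438 ± 20.0 and 782 ± 64.2 (SD, n = 3 each). The 26 elements with at most 3 counts in every wild-type library went from 0.415 ± 0.173 to 186 ± 5.0 CPM, which was 54.0% of the difference. AT5TE31020 and AT5TE63020 lay just outside that limit, with 4 counts in 1 wild-type library and 0 or 1 in the others, and added 106 CPM, or 30.9%. The other 10 elements called higher added 37.3 CPM and the untested elements 25.1 CPM. The 37 tested elements that were not called made up 74.8% of the wild-type level and 42.6% of the ddcc level, with 328 ± 22.9 and 333 ± 63.2 CPM. These classes were formed from the same comparison, so the sums are a description and were not tested.

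**Figure D1:**
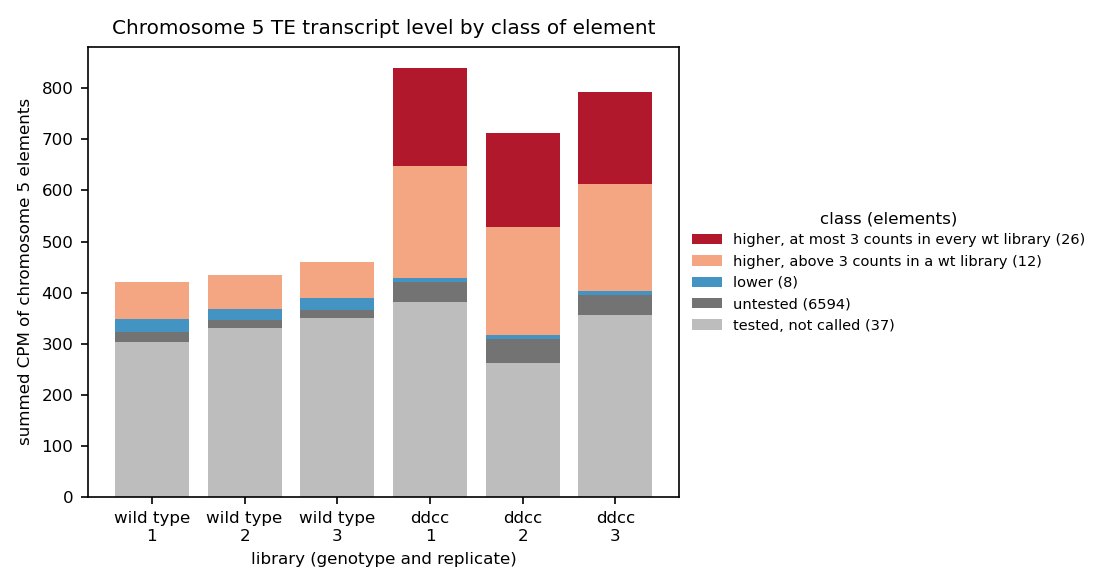
Stacked bars give the summed CPM of chromosome 5 elements (y axis) in each of the 6 libraries (x axis), divided by class of element, with the number of elements in brackets. The class with at most 3 counts in every wild-type library is below 1 CPM in wild type and stands at 182 to 191 CPM in ddcc, while the elements not called keep the largest part in every library.

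The increase was concentrated in a handful of elements. Those with the largest increase were AT5TE31020, AT5TE34980, AT5TE35950, AT5TE63010 and AT5TE63020. Together they rose from 0.414 ± 0.208 to 219 ± 4.85 CPM (SD, n = 3 each), or 63.6% of the whole difference. They lie at 4 places in the identifier order. Their families and sequences were not used here, so what kind of transposon each is remains unnamed.

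AT5TE31020 had 4, 1 and 0 counts in wild type against 1234, 1130 and 1231 in ddcc. The ddcc libraries differed little among themselves, and the level rose from 0.0983 ± 0.121 to 64.9 ± 0.811 CPM (SD, n = 3 each, log2 fold change 9.20 with an SE of 0.20, adjusted p 3.54e-10 in edgeR). In the fit that left out wild-type replicate 1, which held most of its wild-type counts, the log2 fold change was 10.71. AT5TE35950 had 0, 0 and 2 counts in wild type against 1122, 1001 and 1139 in ddcc. Its wild-type reads came from replicate 3 alone, and the ratio of the levels was 1432 (95% counting interval 396 to 11825, edgeR adjusted p 3.54e-10). Without that library the wild type held no reads, and the fitted log2 fold change moved from 10.25 to 13.03. A value fitted against no reads depends on a prior count, a small value added in the fit.

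AT5TE34980 had 3, 1 and 1 counts in wild type against 715, 600 and 669 in ddcc, a ratio of 348 (95% counting interval 149 to 1074, edgeR adjusted p 3.01e-10). Its log2 fold change of 8.35 was 8.99 without wild-type replicate 1. The element with the next number, AT5TE34985, went from 0 counts to 22, 10 and 19, higher by at least 4.91-fold (edgeR adjusted p 7.68e-04). This pair thus rose together, with most of the reads in the first of them.

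AT5TE63020 had 1, 1 and 4 counts in wild type against 859, 733 and 709 in ddcc, a rise from 0.128 ± 0.117 to 41.5 ± 3.44 CPM (log2 fold change 8.31 with an SE of 0.21, adjusted p 9.85e-10 in edgeR). AT5TE63010, listed 2 entries before it, had 0, 0 and 2 counts against 374, 320 and 281, a ratio of 428 (95% counting interval 118 to 3538, edgeR adjusted p 6.17e-08). The entry between them, AT5TE63015, had 0 counts in wild type against 10, 6 and 7 in ddcc, while the neighbours on either side, AT5TE63005 and AT5TE63025, had 0 counts in every library. The ddcc reads covered 3 adjacent entries and stopped at both ends. Without wild-type replicate 3 the log2 fold changes of AT5TE63020 and AT5TE63010 moved from 8.31 to 9.28 and from 8.51 to 11.29. AT5TE63010 had no wild-type read in that fit, so 11.29 depends on the prior count.

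Of the elements called higher, 17 had 0 counts in every wild-type library, and their increase can only be bounded from below against 3 counts per library. The bounds ran from 4.12-fold to 47.3-fold, with a median of 13.1-fold. AT5TE15640 had 143, 183 and 158 counts in ddcc and rose by at least 47.3-fold (edgeR adjusted p 1.99e-06). AT5TE32880 had 118, 106 and 125 counts and rose by at least 33.9-fold (edgeR adjusted p 1.30e-06). All ddcc libraries carried these elements at similar counts, but both were picked by their small p, which favours such evenness.

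The next 3 elements had the smallest p-values of this group after them. AT5TE50490 had 80, 47 and 86 counts in ddcc (a rise of at least 20.6-fold, edgeR adjusted p 3.36e-05). AT5TE25535 had 71, 52 and 80 counts (a rise of at least 19.7-fold, edgeR adjusted p 1.60e-05), and AT5TE63610 had 63, 52 and 85 (a rise of at least 19.4-fold, edgeR adjusted p 2.40e-05). Over the 26 elements at or under 3 counts in wild type, the coefficient of variation of CPM across ddcc libraries had a median of 22.8% and ran from 3.19% to 60.6%. AT5TE53465, at the upper end, had 32, 26 and 77 counts, and its fitted log2 fold change of 8.40 was 7.76 without ddcc replicate 3. This element had no wild-type reads, so both fitted values depend on the prior count.

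Further elements went from near silence to reads in all ddcc libraries. AT5TE39275 had 0, 1 and 0 counts in wild type against 72, 71 and 64 in ddcc, a ratio of 182 (95% counting interval 32.2 to 7210, edgeR adjusted p 2.19e-06), and was even across ddcc. Its fitted log2 fold change of 7.08 was 9.04 without wild-type replicate 2, which held the 1 count. No wild-type read was left in that fit, so 9.04 depends on the prior count. AT5TE77610 had 3, 1 and 2 counts against 103, 62 and 65, a ratio of 33.6 (15.2 to 92.6, edgeR adjusted p 7.35e-06). AT5TE46475 had 0 counts against 94, 73 and 38 (a rise of at least 19.9-fold, edgeR adjusted p 1.56e-04), with its lowest ddcc count in replicate 3.

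AT5TE46485, listed 2 entries after it, had 1, 0 and 0 counts against 53, 37 and 24 and followed the same order of the ddcc libraries. Its log2 fold change of 6.22 was 8.17 without wild-type replicate 1, a fit with no wild-type read that depends on the prior count. AT5TE36620 had 0 counts against 54, 86 and 36 (a rise of at least 17.3-fold, edgeR adjusted p 2.45e-04), with replicate 2 highest. AT5TE69650, with 0 against 48, 50 and 73, and AT5TE83215, with 0 against 38, 34 and 45, rose by at least 16.6-fold and 11.4-fold (edgeR adjusted p 3.51e-05 and 3.85e-05). The rest of the 17 had 10 to 40 counts in each ddcc library: AT5TE33455, AT5TE34985, AT5TE38495, AT5TE44355, AT5TE44770, AT5TE15645 and AT5TE48550.

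**Figure D2:**
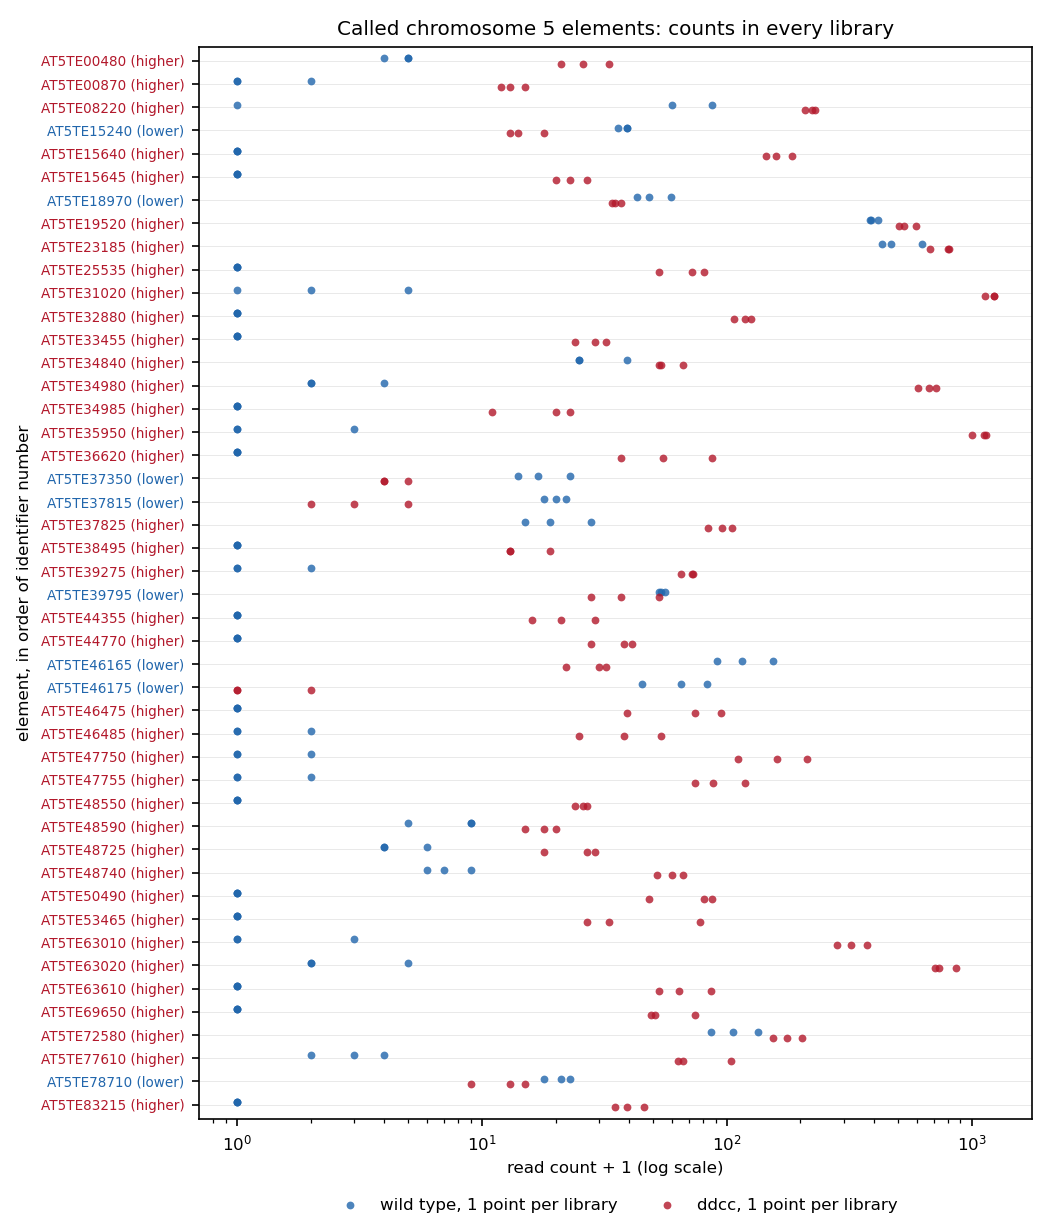
Each row is 1 of the 46 called chromosome 5 elements in order of identifier number, and each point is the read count plus 1 of 1 library (x axis, log scale), in blue for wild type and red for ddcc. Most rows called higher have wild-type points at or next to 1, which stands for 0 counts, and ddcc counts of 10 or more.

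Of the 12 elements called higher that exceeded 3 counts in a wild-type library, 4 had a log2 fold change under 1. AT5TE19520 had 414, 383 and 388 counts in wild type against 591, 506 and 527 in ddcc, a rise from 24.4 ± 0.973 to 29.3 ± 1.35 CPM (log2 fold change 0.26 with an SE of 0.07, adjusted p 0.0130 in edgeR). AT5TE23185 had 623, 428 and 468 counts against 798, 672 and 807, a rise from 31.2 ± 5.0 to 41.1 ± 2.41 CPM (log2 fold change 0.40 with an SE of 0.10, adjusted p 0.0147 in edgeR). AT5TE72580 had 133, 105 and 85 counts against 201, 175 and 154 (log2 fold change 0.53 with an SE of 0.14, adjusted p 0.0181 in edgeR). The genotypes did not overlap in CPM for any of these, but 22.5% of all tested features had every ddcc library above every wild-type library. Each of the calls depended on single libraries. That of AT5TE19520 was lost without wild-type replicate 2 (edgeR adjusted p 0.0518), that of AT5TE23185 without wild-type replicate 3 (0.0528) or ddcc replicate 3 (0.0549). For AT5TE72580 it was lost without wild-type replicate 2 (0.0610), wild-type replicate 3 (0.0723) or ddcc replicate 1 (0.0572). The call of AT5TE34840 (24, 38 and 24 counts against 65, 53 and 52) was lost without wild-type replicate 1, wild-type replicate 3 or ddcc replicate 1, with edgeR adjusted p up to 0.0811.

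AT5TE08220 was transcribed in ddcc and unevenly in wild type. It had 0, 86 and 59 counts in wild type against 208, 221 and 228 in ddcc, so 1 wild-type library was empty where the others were well above the detection limit. The level rose from 3.06 ± 2.74 to 11.9 ± 0.936 CPM (log2 fold change 1.98 with an SE of 0.54, adjusted p 0.0193 in edgeR). It was 1.37 on that scale without wild-type replicate 1 (edgeR adjusted p 4.50e-04) and 2.68 without wild-type replicate 2 (0.0181). DESeq2 did not call it (adjusted p 0.433). The elements listed on either side, AT5TE08215 and AT5TE08270, had 0 counts in every library.

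AT5TE48550, AT5TE48590, AT5TE48725 and AT5TE48740 belong to a short range of identifier numbers. AT5TE48740 had 8, 5 and 6 counts in wild type against 65, 51 and 59 in ddcc, a rise from 0.390 ± 0.0794 to 3.15 ± 0.236 CPM (log2 fold change 2.99 with an SE of 0.25, adjusted p 1.51e-05 in edgeR). AT5TE48725 had 5, 3 and 3 counts against 26, 28 and 17 (log2 fold change 2.47 with an SE of 0.39, adjusted p 9.48e-04 in edgeR). AT5TE48550 had 0 counts against 23, 26 and 25 and rose by at least 7.22-fold (edgeR adjusted p 1.15e-04). All 3 were low in every wild-type library and higher in every ddcc library. They entered the test only through their ddcc reads, so this separation adds no support. AT5TE48590, with 8, 4 and 8 counts against 19, 14 and 17, differed less (log2 fold change 1.12 with an SE of 0.35, adjusted p 0.0339 in edgeR). Its call was lost without any library but ddcc replicate 2, with edgeR adjusted p up to 0.128.

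The 8 elements called lower had a median of 2.66 CPM in wild type as the mean of 3 libraries, and the genotypes did not overlap in any of them. Over all tested features, 21.0% had every ddcc library below every wild-type library. For 5 of the 8 the log2 fold change was −1 or less. AT5TE46175 had 82, 44 and 64 counts in wild type against 0, 0 and 1 in ddcc, and was thus nearly absent from the mutant. The ratio of the levels was 217 in favour of wild type (95% counting interval 38.4 to 8595, edgeR adjusted p 7.52e-06). Its fitted log2 fold change of −7.27 was −9.06 without ddcc replicate 3, which held the 1 count. No ddcc read was left in that fit, so −9.06 depends on the prior count.

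AT5TE46165 fell from 153, 90 and 114 counts to 31, 29 and 21, or from 7.32 ± 1.70 to 1.47 ± 0.297 CPM (log2 fold change −2.32 with an SE of 0.22, adjusted p 3.66e-05 in edgeR). It stands 2 entries before AT5TE46175, and the entry between them, AT5TE46170, had 0 counts in all libraries. Before them AT5TE46160 had 22, 6 and 13 counts against 11, 7 and 6 (log2 fold change −0.95, edgeR adjusted p 0.153), and AT5TE46155 had 89, 42 and 68 against 124, 54 and 69 (log2 fold change 0.12, edgeR adjusted p 0.804). AT5TE46150, listed before these, had 8, 3 and 8 counts against 7, 9 and 7 and was not tested. Of this group of entries, only AT5TE46165 and AT5TE46175 were called.

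AT5TE37815 fell from 17, 19 and 21 counts to 4, 1 and 2 (1.18 ± 0.194 to 0.124 ± 0.0771 CPM, log2 fold change −3.15 with an SE of 0.43, adjusted p 3.76e-04 in edgeR). AT5TE37825, listed 2 entries later, rose from 18, 27 and 14 counts to 104, 95 and 83 (1.21 ± 0.397 to 5.10 ± 0.570 CPM, log2 fold change 2.06 with an SE of 0.22, adjusted p 7.48e-05 in edgeR). AT5TE37820 between them had 1 count in 1 wild-type library. Near neighbours of similar wild-type count thus moved in opposite directions. This was the single mixed case among 9 pairs of called elements whose numbers differed by at most 50. In 7 of these pairs both rose, and in 1 both fell.

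**Figure D3:**
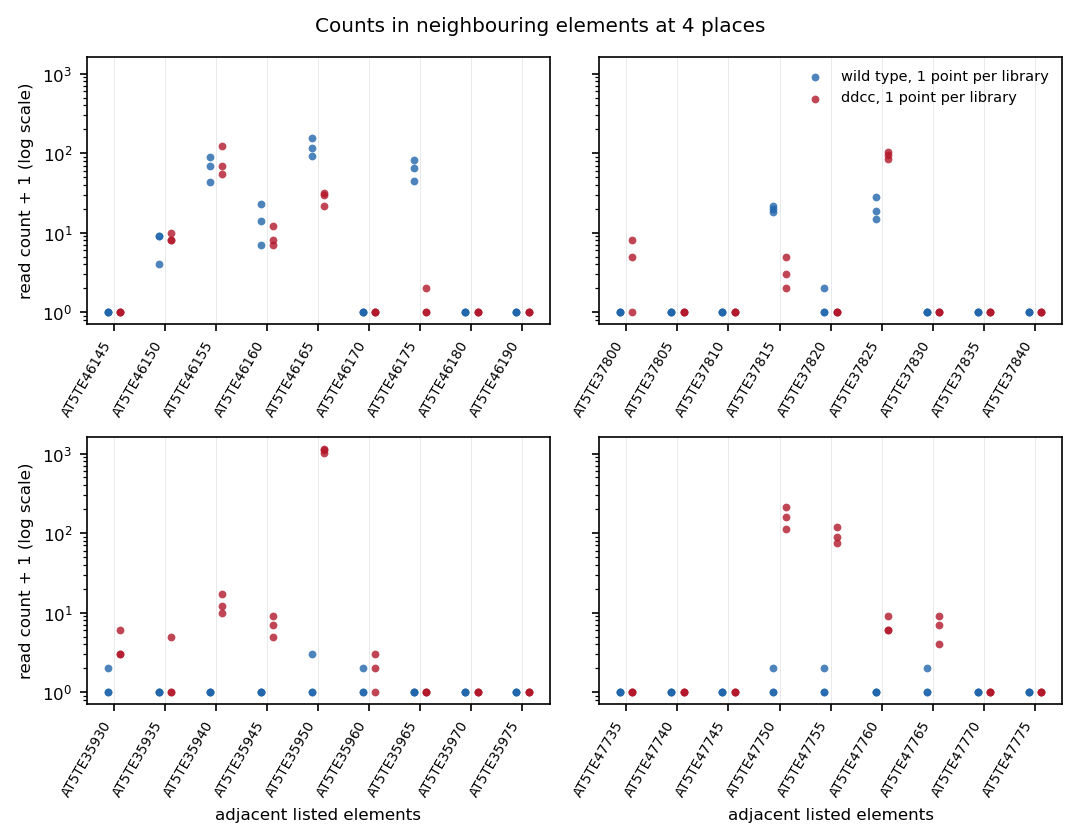
Each panel shows 9 adjacent listed elements (x axis) with the read count plus 1 of every library (y axis, log scale), in blue for wild type and red for ddcc. AT5TE46165 and AT5TE46175 are lower in ddcc beside AT5TE46155, which was not called, AT5TE37815 and AT5TE37825 move apart, and AT5TE35950 and AT5TE47750 stand among entries that also have reads in ddcc.

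Of the other decreases, some rested on single libraries and some did not. AT5TE37350 fell from 22, 16 and 13 counts to 3, 4 and 3 (log2 fold change −2.49 with an SE of 0.38, adjusted p 7.92e-04 in edgeR). AT5TE15240 fell from 38, 35 and 38 counts to 13, 12 and 17 (log2 fold change −1.58 with an SE of 0.24, adjusted p 6.58e-04 in edgeR). Both kept their call without any 1 library. AT5TE18970 went from 47, 58 and 42 counts to 33, 34 and 36 (log2 fold change −0.70 with an SE of 0.19, adjusted p 0.0192 in edgeR), and its call was lost without wild-type replicate 2 (0.0851) or ddcc replicate 1 (0.0595).

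AT5TE78710 had 22, 20 and 17 counts in wild type against 14, 12 and 8 in ddcc (log2 fold change −0.97 with an SE of 0.29, adjusted p 0.0291 in edgeR). The call was lost without wild-type replicate 1 (0.0898), 2 (0.0825) or 3 (0.0622) and without ddcc replicate 3 (0.108). AT5TE39795 had 52, 55 and 53 counts in wild type against 52, 27 and 36 in ddcc (log2 fold change −0.67 with an SE of 0.22, adjusted p 0.0401 in edgeR). Its first ddcc library lay close to wild type, and the call was lost without any library but ddcc replicate 1, with edgeR adjusted p up to 0.115. DESeq2 called none of AT5TE18970, AT5TE78710 and AT5TE39795 (adjusted p 0.0781, 0.148 and 0.0891), and AT5TE39795 was also not called with library totals alone (edgeR adjusted p 0.0528).

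Of the 20 calls on elements above 3 counts in a wild-type library, 7 of the 12 higher and 5 of the 8 lower calls were kept whichever library was left out. Of these 12, 5 had at least 10 counts in every wild-type library. Among them AT5TE37825 kept its call, and AT5TE19520, AT5TE23185, AT5TE34840 and AT5TE72580 lost it in at least 1 fit. The rest of the 12 needed ddcc reads to enter the main test, so a kept call adds no support there. One fit differed, that of AT5TE08220 without wild-type replicate 1. There its wild-type counts of 86 and 59 were enough to enter, and the call was kept (edgeR adjusted p 4.50e-04). Likewise AT5TE37350, AT5TE37815 and AT5TE46175, among the kept lower calls, needed wild-type reads. The same count is not given for the 26 elements with at most 3 counts in every wild-type library. They entered the test only through ddcc reads and were all called.

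Among elements transcribed in both genotypes without a call, AT5TE46635 was nearly level, with 382, 305 and 307 counts in wild type against 421, 340 and 372 in ddcc. Its means were 20.4 ± 1.76 and 20.4 ± 1.33 CPM (SD, n = 3 each, log2 fold change 0.00 with an SE of 0.08, adjusted p 0.996 in edgeR). AT5TE36920 (67, 59 and 54 counts against 81, 55 and 65) and AT5TE04245 (120, 111 and 110 against 125, 127 and 146) were close to level too, at −0.03 (SE 0.16) and 0.04 (SE 0.11) on the log2 scale. AT5TE81425 had 830, 707 and 635 counts against 959, 813 and 949, with means of 44.6 ± 3.46 and 49.1 ± 2.28 CPM (log2 fold change 0.14 with an SE of 0.07, adjusted p 0.165 in edgeR). Of the 37 elements not called, 33 had genotypes that overlapped in CPM, and 36 had a log2 fold change under 1 in size. Over all 18498 tested features, called or not, 43.5% had genotypes that did not overlap, in either direction.

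The element with the most counts of all, AT5TE36230, varied strongly within each genotype. It had 837, 1934 and 1700 counts in wild type against 2578, 877 and 843 in ddcc, with means of 93.2 ± 38.6 and 76.5 ± 50.1 CPM (SD, n = 3 each, log2 fold change −0.28 with an SE of 0.40, adjusted p 0.647 in edgeR). The highest and the lowest CPM of all libraries both belonged to ddcc. It stood at −0.97 on the log2 scale when ddcc replicate 1 was left out (edgeR adjusted p 0.0325). This element alone held 11.6% to 27.4% of the chromosome 5 TE counts in wild type and 5.68% to 16.0% in ddcc. The entry after it, AT5TE36235, had 88, 1 and 10 counts against 15, 10 and 10, so its highest count came from the wild-type library in which AT5TE36230 was lowest. Their levels were not otherwise compared.

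AT5TE79650 was even in 5 libraries and high in one. It had 754, 562 and 633 counts in wild type against 725, 579 and 1497 in ddcc, with means of 40.1 ± 4.86 and 50.3 ± 25.9 CPM (log2 fold change 0.33 with an SE of 0.27, adjusted p 0.396 in edgeR), and the log2 fold change was −0.17 without ddcc replicate 3. That library stood out in other elements as well, under a rule chosen after the values were seen. Of the 79 tested chromosome 5 elements that averaged 10 or more counts in ddcc, 8 (10.1%) had a CPM in replicate 3 at least 1.8 times that of the next ddcc library. For ddcc replicates 1 and 2 the numbers were 2 and 0. AT5TE72360 had 83, 72 and 213 counts in ddcc, AT5TE44605 had 331, 239 and 631, and AT5TE42470 had 89, 61 and 177. Of the 8 elements, AT5TE53465 was called higher and the others were not called.

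Elements were numbered along the chromosome, and the numbers ran from 10 to 97150. They give an order and not a distance, since coordinates of the elements were not used here. Divided into 10 windows of equal width in identifier number, the list was densest in the middle, with 1165, 1632 and 1341 elements in windows 4, 5 and 6 against 198 in the first and 213 in the last. Windows 4 to 6 held 62.0% of all listed elements and 60.5% of the elements called higher (23 of 38), 54 of the 73 gained elements and 5 of the 8 called lower. Per 100 listed elements, 0.556 were called higher in these windows and 0.591 in the others, and 0.121 and 0.118 were called lower. Gained elements numbered 1.3 per 100 listed in these windows and 0.748 in the others. For elements with reads in all libraries the values were 1.23 and 1.77, and none of these differences was tested.

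The ratio of detected elements between the genotypes varied by window. Window 5, with numbers from 38870 to 48575, had 29, 27 and 17 detected elements in wild type and 79, 101 and 84 in ddcc, a ratio of means of 3.62. The ratio was 2.08 in window 6, 1.51 in window 4 and 1.25 to 1.46 in the other windows. As a part of all detected chromosome 5 elements, window 5 went from 12.4% ± 2.08 to 25.6% ± 1.33 (SD, n = 3 each). The mean part was also larger in ddcc in window 6 and smaller in the other 8 windows. The genotypes did not overlap in window 5, and the exact permutation p was 0.1, the smallest possible, or 0.111 after Benjamini-Hochberg adjustment over the 10 windows. The same p was reached in 9 of the 10 windows, all but window 2, so the p does not set window 5 apart.

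**Figure D4:**
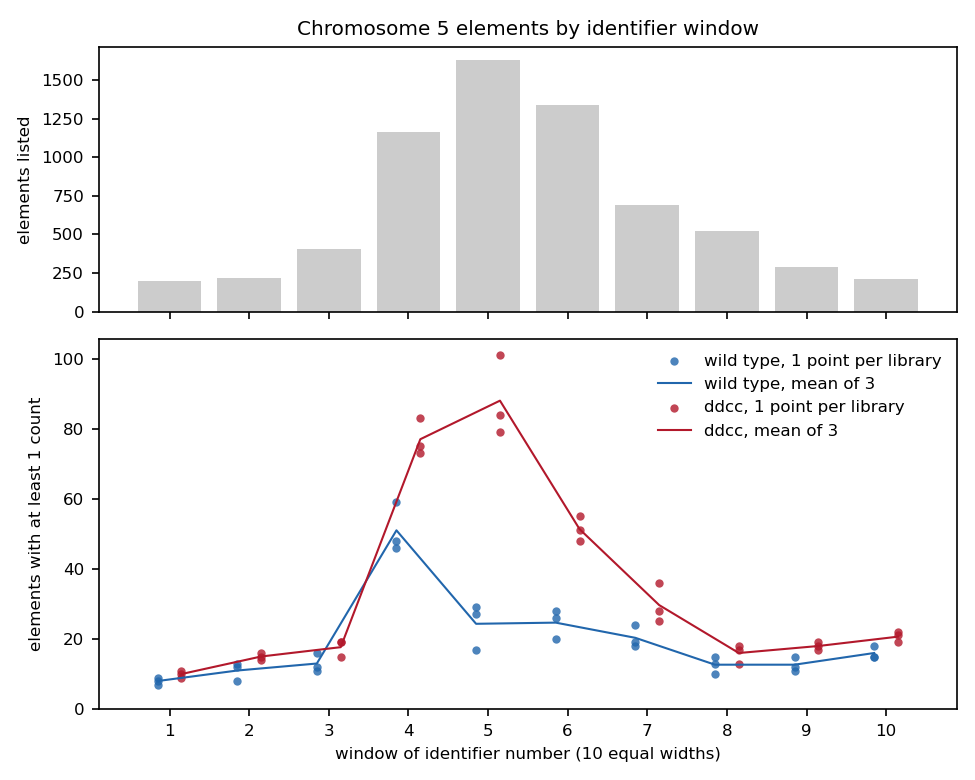
The upper bars give the number of chromosome 5 elements listed in each of 10 equal windows of identifier number (x axis), and the lower points give the number with at least 1 count in each library, with lines for the means of 3. Wild type peaks in window 4 and ddcc in window 5, where the ddcc libraries had 79 to 101 detected elements and the wild-type libraries 17 to 29.

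Counts of each kind of element by window are a description and were not tested. Of the gained elements, 27 of 73 lay in window 5, and there were 15 in window 6 and 12 in window 4. Of the 96 elements with reads in all libraries, 27 lay in window 4 and 11 in window 5. Window 5 held 24.4% of the listed elements. All 8 of its elements called higher had at most 3 counts in every wild-type library, and 3 of its elements were called lower. The gained elements had a median of 158 other elements within 500 identifier numbers on either side, with a range of 13 to 195. The median was 115.5 for elements without reads, 123.5 for the 26 called higher from at most 3 wild-type counts and 78.5 for the other 12 called higher. It was 89.0 for elements with reads in all libraries and 154 for the 8 called lower, and no difference between these medians was tested. The first and the last window had 0 gained elements.

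By summed level the order of the windows was another. Window 7 went from 14.4 ± 5.13 to 82.2 ± 6.17 CPM (SD, n = 3 each), a ratio of 5.71, and AT5TE63010 and AT5TE63020 lie in it. Window 4 went from 122 ± 34.3 to 287 ± 52.5 CPM, a ratio of 2.36, with AT5TE31020, AT5TE34980 and AT5TE35950. Window 5 went from 62.9 ± 7.90 to 95.1 ± 7.98 CPM, a ratio of 1.51. Thus the window with the highest ratio of detected elements was not the one with the highest ratio of summed level.

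**Figure D5:**
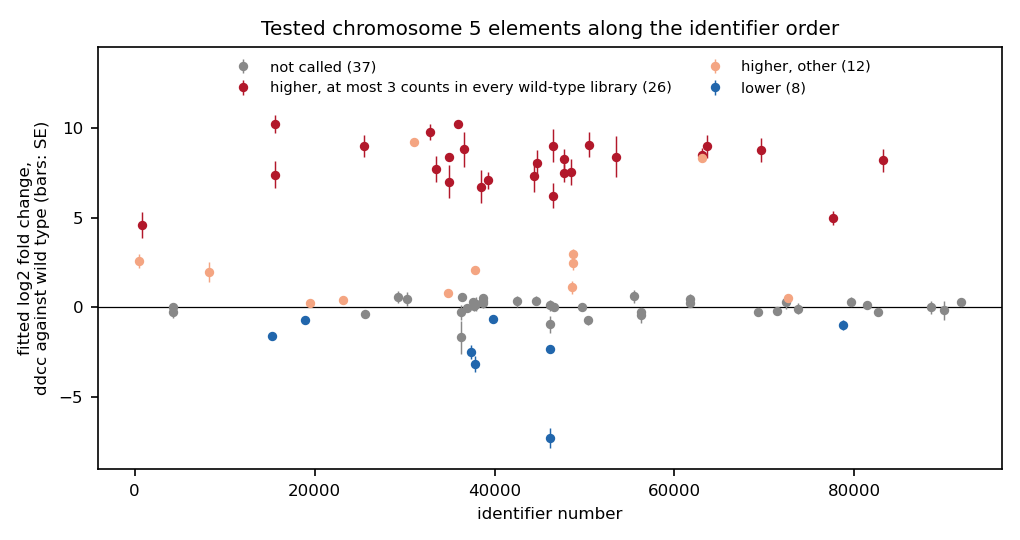
Each point is 1 of the 83 tested chromosome 5 elements, with its identifier number on the x axis and its fitted log2 fold change, ddcc against wild type, on the y axis, and bars of 1 SE. Elements at or under 3 counts in wild type lie at 4.60 to 10.25, where the fitted value depends on a prior count, and the 37 elements not called lie between −1.65 and 0.61.

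Some of the elements that gained reads were adjacent in the list. There were 94 elements that were gained by presence of reads or called higher, including the 12 above 3 counts in a wild-type library, of which 66 had no such element directly before or after them in the list. The other 28 formed 12 stretches of adjacent entries, with at most 3 entries in a stretch. In the stretch that ends with AT5TE35950, AT5TE35940 had 0 counts in wild type against 11, 16 and 9 in ddcc, and AT5TE35945 had 0 against 8, 6 and 4. In another, AT5TE47750 had 0, 0 and 1 counts against 211, 159 and 110 and AT5TE47755 had 0, 1 and 0 against 118, 87 and 73, followed by AT5TE47760 with 0 counts against 5, 5 and 8. The log2 fold changes of AT5TE47750 and AT5TE47755, 8.28 and 7.50, were 10.27 without wild-type replicate 3 and 9.46 without wild-type replicate 2. In those fits the element had no wild-type read, so 10.27 and 9.46 depend on the prior count. In both stretches the ddcc reads were far more numerous in 1 or 2 entries than in those beside them.

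Another stretch ran from AT5TE50485, with 0 counts against 12, 7 and 5, through AT5TE50490 to AT5TE50495, with 0 against 2, 3 and 5. AT5TE15640 was followed by AT5TE15645, with 0 counts in wild type against 19, 22 and 26 in ddcc (a rise of at least 6.53-fold, edgeR adjusted p 1.87e-04). By contrast, the entries next to AT5TE31020, AT5TE30980 and AT5TE31025, had at most 1 count in any library. Of the 26 elements called higher from at most 3 counts, 10 had no read in either neighbouring entry and the others had reads in at least one. The same held for 15 of the 37 elements not called. Of the neighbouring entries, 40.4% had reads beside the 26 elements and 39.2% beside those not called, so the trait was not particular to raised elements. Copies of a TE family and adjoining fragments of 1 insertion can share reads, and how such reads were counted is not given in the sources used here, so adjacent entries are not independent and the assignment of reads to single elements is uncertain.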

How the data were processed

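Polyadenylated RNA was measured in 6 leaf libraries, grouped by the genotype and number in their titles. The authors deposited raw read counts per gene and TE without normalization. The submitters' processing notes name Trim Galore 0.6.0, cutadapt 1.15, STAR 2.7.0f and the TAIR10 build. The counting program, its use of strand and its handling of multi-mapping reads are not given in the sources used here. The number of value columns left unmatched was 0, and a table of moss batch labels was not used.

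All features were fitted in 1 model: filterByExpr (minimum count 10), TMM scaling and a quasi-likelihood test (edgeR 4.0.16, R 4.3.3) on genotype alone, Benjamini-Hochberg adjusted over 18498 features. Of the steps, only the edgeR fit was tested on simulated counts, with moderate fold changes and no rise from silence. SEs were derived from the F statistic and the fitted log2 fold change, and are approximate. CPM used TMM-scaled totals of tested features. Where a genotype had 0 counts in every library, folds are bounds against 3 counts per library. Fitted log2 fold changes given for such an element, or for a fit that left 0 counts, depend on the prior count. Where it had some but at most 3 per library, ratios of summed counts have exact 95% intervals. These and the Wilson intervals cover counting error only.

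The members, gene lists and tests were chosen with earlier results of these data known. Named elements are the 10 called higher with most ddcc CPM, 5 called higher by smallest p with 0 wild-type counts, all called lower, 6 with most CPM over all libraries, 3 uncalled with at least 10 counts per library and log2 fold change nearest 0, and the longest 3 runs of called elements with numbers at most 50 apart. Others were chosen after their values were seen. Alternatives were other scalings, count filters, DESeq2 1.42.0, a replicate block, thinning and leaving out each library.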

Additional observations from a re-analysis of the deposited data

How the results depend on the processing

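The filter on low counts moved the calls most. Without a filter beyond 1 count the higher calls numbered 79 and the lower calls 9. A minimum mean of 50 counts left 32 elements in the test, of which 14 were higher and 1 lower. Under other scalings, DESeq2 and the fits without 1 library, 35 to 42 were higher and 6 to 9 lower. A presence limit of 5 counts, with at most 1 for absence, gave 36 gained elements, 1 lost and 51 in both genotypes. Lost elements numbered 2 after thinning and 2 to 5 without single libraries, and gained elements 65 and 81 to 91. The difference in detected elements, 149.7 in the main setting, was 87.3 at a minimum of 3 counts and 39.3 at 10. It kept its direction without any 1 library (134.8 to 163.8), as did the share of all counts (0.0325 to 0.0392 percentage points). Library numbers did not pair wild type with ddcc: same-numbered libraries had correlations of −0.104, −0.0775 and 0.0262 in their deviations from the genotype means, and not every library correlated best with its own number. A replicate block gave 38 higher and 8 lower, 38 and 7 of them shared with the main setting.

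Among named elements, direction turned for values near 0. With single libraries left out, the log2 fold change of AT5TE46635 ran from −0.06 to 0.08 (−0.06 without wild-type replicate 2, −0.01 without wild-type replicate 3, −0.05 without ddcc replicate 1), and it was −0.01 under the filter on 50 counts. AT5TE36920 ran from −0.16 to 0.06 (0.02 without wild-type replicate 1, 0.06 without ddcc replicate 2) and was 0.00 with library totals alone. AT5TE04245 ran from −0.03 (without ddcc replicate 3) to 0.10, and AT5TE79650 from −0.17 (without ddcc replicate 3) to 0.56. The cause of the shifts under the filter and under library totals was not tested.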

Other observations

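The elements raised in ddcc replicate 3 were mostly transposable elements over the whole table as well. By the same rule, a CPM at least 1.8 times that of the next ddcc library and a mean of at least 10 ddcc counts, 31 of 18312 tested features (0.169%) were high in that library. They comprised 17 of 357 TEs (4.76%) and 14 of 17955 genes (0.078%), and 8 of the 17 TEs were on chromosome 5. In ddcc replicate 2, by contrast, 193 features (1.05%) were high and 0 of the 79 chromosome 5 elements examined. The rule was chosen after the values were seen, and no test was made.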
